A study of Mus musculus with 12 samples.

Results

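Expression of 44 genes with giant transcripts was followed in MC38-idAdpgkG cells, an engineered line made from MC38, a mouse colon carcinoma. The genes were listed by name for their very long mRNAs, and the rule used no measured value. Earlier results of these data were, however, known when the list was chosen. Length alone does not define the list, since 794 other tested genes had transcripts at least as long as its shortest. They are 44 of the 27179 gene identifiers in the count table, and all 44 were found, passed the filter on low counts and were tested. Their longest annotated transcripts ran from 7.43 kb (Myh9) to 23.5 kb (Macf1), with a median of 13.5 kb, against a median of 2.71 kb over all identifiers with a known length. Myh9 was longer than 94.3% of those identifiers, and the other 43 ranked above it.

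The cells carry a stably transfected, doxycycline-inducible and degradable construct for Adpgk(R304M), a mutant ADP-dependent glucokinase, fused to turboGFP, in a study of neoantigen peptides displayed on MHC class I. dTAG-13 is a small molecule that brings a tagged protein to the cereblon ubiquitin ligase for degradation. All 4 groups, control included, received mouse interferon-gamma (mIFNg) at 20 ng/mL for 51 h and carried the construct. Control cells had interferon-gamma alone. The doxycycline group also had 1 µg/mL doxycycline for 51 h. The dTAG-13 group had 1 µM dTAG-13 for the last 3 h, added after 48 h of interferon-gamma without doxycycline. In the group with both compounds, doxycycline was present throughout and 1 µM dTAG-13 was added after 48 h for 3 h. The line has a C57BL/6 background, and no group without interferon-gamma or without the construct was analysed here.

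The listed genes mostly encode very large proteins. They include molecular motors, spectrin-repeat and plakin linkers that join cytoskeletal filaments, and HECT-domain and other giant ubiquitin ligases. Extracellular matrix and receptor proteins, tube-shaped lipid transfer proteins, and scaffolds of chromatin and splicing complexes are also among them. In poly(A) RNA sequencing a long mRNA also yields more fragments than a short one present in the same number of copies. Levels of the members are therefore ranked here per kb of transcript. Median levels of gene sets and correlations with mean level used CPM not divided by length.

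Each group had 3 libraries, which per the labels are technical triplicates made from 1 biological sample. All p-values and errors therefore measure the spread between libraries of 1 culture per group. The libraries held 22165538 to 32809573 counts. Adpgk, for which counts per gene do not separate the endogenous gene from the transgene, was at 160.5 ± 2.49 CPM in control and 1338 ± 20.1 CPM with doxycycline (mean ± SD, n = 3). Of 9 colon epithelium markers none reached 1 CPM in all libraries, and Epcam, Cdx2 and Muc2 had no count. The labelled colon carcinoma cells thus lacked the defining markers of colon epithelium. Of 4 mesenchymal genes, Vim and Col3a1 stood at 1018 to 1476 and 765 to 1112 CPM. Pdgfrb was at 4.54 to 8.41 CPM, and Col1a1 was at most 0.2 CPM in any library. The summed level of 4 leukocyte markers was at most 0.0644 CPM in any library, and that of the endothelial markers Pecam1 and Cdh5 was 1.94 to 4.29 CPM.

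The members shared features other than length. A median of 92.0% of the transcript was coding sequence, against 43.96% in 792 other tested genes with a coding transcript at least as long as the shortest member. Their median 3′ untranslated region was 0.998 kb against 4.63 kb, and their median exon count was 60.5 against 20. Median GC content of the transcript was 48.8% in the members and 46.5% in the other long genes. The members were also at a higher level, with a median of the mean CPM of 94.09 against 44.04 in the other long genes. Shares of called genes are compared below without matching for level, and the part of level in the members' calls was not tested. In the RefSeq annotation of GRCm38.p6, 30 members overlap a non-coding gene and 8 overlap a coding gene. The 8 are Macf1, Dst, Syne2, Herc1, Vps13d, Spen, Nipbl and Nf1. Whether counting used the strand is not given in the sources used here, so reads from such neighbours may be included.

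Promoters are shown for the members with the largest falls after dTAG-13 among those with a single RefSeq promoter entry, Dync1h1 and Ubr4, and for those with the smallest called falls, Vps13a and Ranbp2. Each is the 250 bases before an annotated transcript start on GRCm38.p6, from RefSeq, and capitals mark GGGCGG (GC box), CCAAT and CCGGAA (ETS-type) matches on either strand, where overlapping matches run together. Dync1h1 is at chr12:110601145-110601394 and Ubr4 at chr4:139380409-139380658, both on the plus strand, and Vps13a is at chr19:16780934-16781183 on the minus strand and Ranbp2 at chr10:58446602-58446851 on the plus strand.
Dync1h1: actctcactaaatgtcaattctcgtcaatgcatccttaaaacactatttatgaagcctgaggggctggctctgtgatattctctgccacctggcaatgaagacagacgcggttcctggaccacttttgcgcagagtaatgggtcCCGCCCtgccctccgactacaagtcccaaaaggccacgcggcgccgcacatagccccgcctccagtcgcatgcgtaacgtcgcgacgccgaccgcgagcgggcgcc
Ubr4: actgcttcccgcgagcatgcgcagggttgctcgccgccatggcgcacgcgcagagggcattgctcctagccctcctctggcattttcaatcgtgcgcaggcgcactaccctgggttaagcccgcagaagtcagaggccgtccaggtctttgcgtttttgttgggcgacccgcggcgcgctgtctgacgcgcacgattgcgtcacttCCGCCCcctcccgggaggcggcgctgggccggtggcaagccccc
Vps13a: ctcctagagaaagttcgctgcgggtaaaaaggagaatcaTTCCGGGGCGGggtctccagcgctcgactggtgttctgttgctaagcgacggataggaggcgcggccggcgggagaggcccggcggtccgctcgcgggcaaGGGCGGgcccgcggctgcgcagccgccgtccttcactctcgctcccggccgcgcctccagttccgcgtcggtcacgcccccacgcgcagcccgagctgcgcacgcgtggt
Ranbp2: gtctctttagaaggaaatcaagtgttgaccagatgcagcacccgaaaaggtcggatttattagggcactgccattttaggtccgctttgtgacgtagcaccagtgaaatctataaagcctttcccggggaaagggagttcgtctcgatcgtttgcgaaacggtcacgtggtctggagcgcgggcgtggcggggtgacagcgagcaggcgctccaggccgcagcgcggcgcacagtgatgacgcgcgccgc
The Dync1h1 and Ubr4 promoters each held 1 GC box and the Vps13a promoter held 2, together with 1 ETS-type match. The annotated Vps13a gene, on the minus strand, extends to position 16781071, so part of its window lies inside the gene. None of the 3 marked motifs was in the Ranbp2 window, which held 1 TATAAA and 1 CACGTG. In the windows of 250 bases before to 50 bases after the start, 36 members had an entry, with 40 promoters. GGGCGG was in 77.5% of these 40 and in 35.7% of all 32851 RefSeq promoters. CCAAT was in 25.0% against 37.4%, CCGGAA in 15.0% against 14.9%, TATAAA in 12.5% against 13.6% and CACGTG in 7.5% against 7.2%. Median GC content of the windows was 65.2% for members and 52.7% for all promoters. The set of all promoters was not limited to tested genes, whereas every member was tested, and no share over tested genes was taken. A match is a description of these letters and not a binding site or a cause.

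The first comparison asked which transcripts differed after 3 h of dTAG-13 in cells not given doxycycline. Of the 44 members, 43 were lower with dTAG-13 than in control and none was higher, whereas 32.1% of the 12910 tested genes were called lower and 30% higher. The median log2 fold change of the members was -0.70, and that of all tested genes 0.02. Falls of at least 2-fold were found for 8 members, Dync1h1, Ubr4, Hspg2, Plec, Fat1, Myh9, Lrp1 and Herc2, while 0.372% of all tested genes fell this far. For 43 members the highest dTAG-13 library lay below the lowest control library, as it did for 33.3% of all tested genes. The exception was Prkdc. These are shares of a library's counts in a bulk culture, in which fewer cells that express a gene and less of its RNA per cell cannot be told apart. Scaling by library size alone left 43 members lower and moved the members' median to -0.60. Under that scaling the median of all tested genes was 0.11, and 37.2% of called genes were lower in place of 51.7%. At an unadjusted p under 0.05 no member was higher in edgeR, and DESeq2 called none higher. After a correction of each library for transcript length and GC content, 36 members remained lower, Prkdc was called higher and the median was -0.22. Under this correction 3943 of the 12910 tested genes were called lower and 3018 higher. On total counts without TMM scaling, the summed level of 4 mesenchymal genes was 2250 to 2320 CPM in control and 2009 to 2048 CPM with dTAG-13. Its part in the result was not tested.

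Among doxycycline-treated cells, where the same compound was added after induction, all 44 members were lower with dTAG-13, against 33.4% of tested genes called lower and 30.7% called higher. The median log2 fold change was -0.62, with a range from -1.13 (Dync1h1) to -0.18 (Akap9), and the median of all tested genes was 0.0032. Dync1h1 was the member with a fall of at least 2-fold, which 0.17% of tested genes showed. In all 44 members the groups did not overlap, against 35% of tested genes with non-overlapping lower values. After the length and GC correction 31 members were lower and 4 higher, with a median of -0.18. Of the 12910 tested genes, 3468 were then called lower and 3252 higher. This pair of groups shares no library with the dTAG-13 and control pair. Across the 44 members the log2 fold changes of the 2 comparisons correlated at Pearson r = 0.81 and Spearman rho = 0.80. Over all 12910 tested genes the values were 0.68 and 0.74. These are descriptions across genes, which share depth and sequence composition and are not independent. Compared with control, cells with both compounds also had 43 members lower, none higher and Prkdc not called. At an unadjusted p under 0.05 none was higher, and DESeq2 called none higher. Their median was -0.57, and 33.8% of tested genes were called lower and 32.5% higher. The length and GC correction gave 25 lower and 5 higher with a median of -0.14, beside 4051 lower and 3269 higher of all 12910 tested genes. Library size alone gave 42 lower and 1 higher, beside 3767 lower and 4917 higher of all tested genes.

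**Figure D1:**
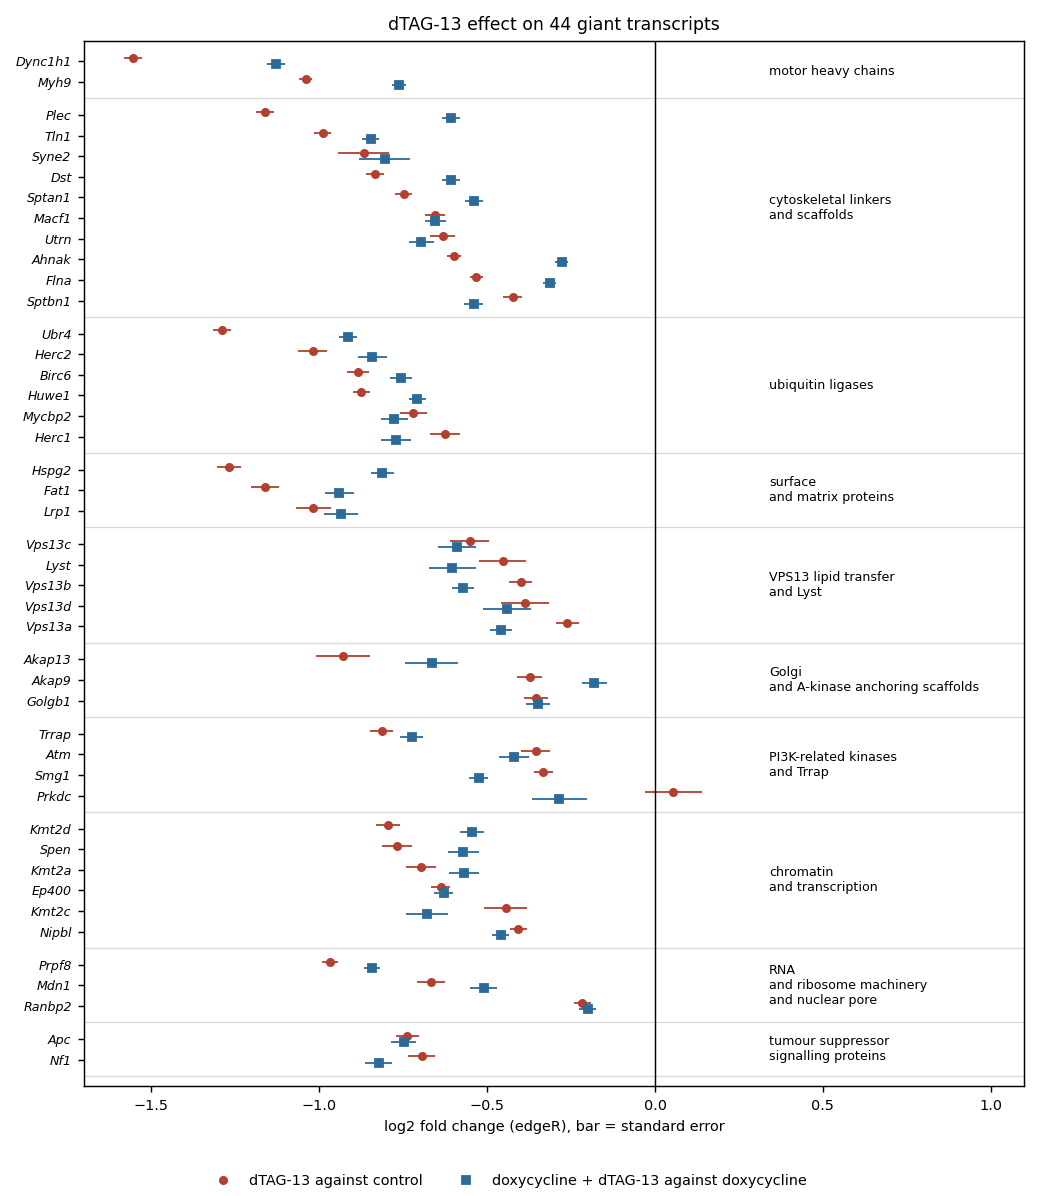
Log2 fold change (edgeR) of each of the 44 members with dTAG-13 against control (red circles) and with doxycycline plus dTAG-13 against doxycycline (blue squares), grouped by role, with bars of 1 standard error. All squares and all circles except that of Prkdc lie left of 0, from -1.55 and -1.13 for Dync1h1 to 0.05 (Prkdc) and -0.18 (Akap9).

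Both motor heavy chains fell in both comparisons. Dync1h1, the heavy chain of cytoplasmic dynein, which carries cargo toward microtubule minus ends, is on chromosome 12 at 110601395 to 110666944. It was at 499, 511 and 498 CPM in the control libraries and at 174, 170.3 and 169 CPM in the dTAG-13 libraries. With doxycycline it was at 437, 439 and 434 CPM, and with both compounds at 199, 211 and 189 CPM. All 4 groups were separate, with control highest and dTAG-13 lowest. The fall was 65.9% without doxycycline (log2 fold change -1.55, SE 0.027, edgeR adjusted p 1.07e-34) and 54.3% with it (-1.13, SE 0.027, adjusted p 3.07e-30). Gm35558, a non-coding gene, overlaps the locus. Myh9, the heavy chain of non-muscle myosin IIA and the shortest of the 44 transcripts, had log2 fold changes of -1.04 and -0.76. Its mean was 1223 ± 11.1 CPM in control and 594 ± 12.05 CPM with dTAG-13.

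All 10 cytoskeletal linkers and scaffolds fell in both comparisons, with medians of -0.70 and -0.61. Plec encodes plectin, a plakin that ties intermediate filaments to other structures, and lies on chromosome 15 at 76170974 to 76231378. It was at 571, 548 and 559 CPM in control, 462, 469 and 464 with doxycycline, 291, 323 and 301 with both compounds and 251, 245 and 254 with dTAG-13. The groups did not overlap, and dTAG-13 alone gave the lowest values. In log2 it changed by -1.16 (SE 0.027, edgeR adjusted p 1.39e-28) without doxycycline and -0.61 (SE 0.027, adjusted p 2.37e-20) with it. The latter turned to 0.048 after the length and GC correction.

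Tln1, talin-1, which couples integrins to actin, is on chromosome 4 at 43531513 to 43562583 and overlaps no annotated gene. Its libraries stood at 339, 357 and 345 CPM in control, 319.8, 322 and 321 with doxycycline, 173, 186 and 177 with both compounds and 173, 175 and 176 with dTAG-13. The 2 groups that had dTAG-13 overlapped each other, and both were below the other groups. Tln1 fell by 49.7% without doxycycline and by 44.4% with it, the latter at -0.85 in log2 (SE 0.026, edgeR adjusted p 1.62e-27), the most negative of this group. Syne2, a nesprin of the nuclear envelope, had -0.87 and -0.81, and Dst, the plakin dystonin, -0.83 and -0.61. The spectrins Sptan1 (-0.75 and -0.54) and Sptbn1 (-0.42 and -0.54), the spectraplakin Macf1 (-0.65 and -0.65) and the dystrophin relative Utrn (-0.63 and -0.70) also fell in both. The actin crosslinker Flna (-0.53 and -0.31) and the scaffold Ahnak (-0.60 and -0.28) were the only members of this group with a log2 fold change above -0.5 in doxycycline-treated cells, and both turned to 0.17 there after the length and GC correction.

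All 6 ubiquitin ligases fell in both comparisons, with medians of -0.88 and -0.77. Ubr4, a giant ligase that recognises N-degrons, is on chromosome 4 at 139380659 to 139489533. Its libraries were at 254, 256 and 257 CPM in control, 248, 244 and 243 with doxycycline, 126, 137 and 127 with both and 103, 104 and 107 with dTAG-13. The groups did not overlap, and dTAG-13 alone gave the lowest values. In log2 it changed by -1.29 (SE 0.028, edgeR adjusted p 8.69e-33) and, in doxycycline-treated cells, -0.91 (SE 0.028, adjusted p 1.11e-27). The HERC-family ligases Herc2 and Herc1 had -1.02 and -0.63 without doxycycline and -0.84 and -0.77 with it. Birc6, an inhibitor of apoptosis with ubiquitin-conjugating activity, had -0.88 and -0.76. The HECT ligase Huwe1 had -0.88 and -0.71, and Mycbp2, a ligase known from axon growth, -0.72 and -0.78.

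The 3 surface and matrix proteins each fell at least 2-fold with dTAG-13 alone, with a median of -1.16, and had a median of -0.94 in doxycycline-treated cells. Hspg2 encodes perlecan, a heparan sulfate proteoglycan of basement membranes, on chromosome 4 at 137468751 to 137570630. It was at 399, 389.8 and 419 CPM in control, 393, 389.8 and 391 with doxycycline, 219.7, 238 and 211 with both compounds and 164, 167 and 171 with dTAG-13. Control and doxycycline libraries overlapped, and the dTAG-13 libraries were the lowest. Its log2 fold changes were -1.27 (SE 0.035, edgeR adjusted p 4.85e-17) and -0.81 (SE 0.035, adjusted p 5.50e-14).

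Fat1, an atypical cadherin, is on chromosome 8 at 44933100 to 45052257. Its libraries were at 97.9, 95.97 and 105 CPM in control, 93.9, 85.1 and 92.96 with doxycycline, 46.5, 50.02 and 45.3 with both and 43.96, 44.02 and 45.4 with dTAG-13. The 2 dTAG-13 groups overlapped, and both were below the others. The falls were -1.16 (SE 0.042) and -0.94 (SE 0.043) in log2, at edgeR adjusted p-values of 1.99e-24 and 3.79e-21. Lrp1, an endocytic receptor of the LDL receptor family, had -1.02 and -0.94.

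The 4 VPS13 proteins, which move lipids between membranes at contact sites, and the lysosomal trafficking regulator Lyst all fell, with medians of -0.40 and -0.57. Vps13c, on chromosome 9 at 67840316 to 67997744, was at 27.9, 28.1 and 26.5 CPM in control, 30.9, 29.5 and 30.9 with doxycycline, 19.97, 20 and 20.6 with both compounds and 18.4, 17.7 and 20.3 with dTAG-13. Its log2 fold changes were -0.55 (SE 0.057, edgeR adjusted p 4.51e-11) and -0.59 (SE 0.057, adjusted p 7.36e-12). Lyst, on chromosome 13 at 13590311 to 13778803, was at 17.2, 18.4 and 20.4 CPM in control, 20.6, 22.9 and 21.1 with doxycycline, 13.6, 14.4 and 14.4 with both and 13.6, 12.9 and 14.4 with dTAG-13. For both genes the doxycycline libraries were the highest of all, and the 2 dTAG-13 groups overlapped. Lyst had -0.45 (SE 0.07, edgeR adjusted p 4.54e-07) and -0.60 (SE 0.07, adjusted p 7.43e-10). Vps13a, Vps13b and Vps13d had -0.26, -0.40 and -0.39 without doxycycline and -0.46, -0.57 and -0.44 with it. After the length and GC correction Vps13d turned to 0.066 and 0.046, and with dTAG-13 alone Lyst (-0.11) and Vps13b (-0.033) were no longer called.

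The Golgi and A-kinase anchoring scaffolds, 3 genes, all fell in both comparisons. Akap13, an anchor for protein kinase A, is on chromosome 7 at 75455526 to 75754609. Its libraries were at 16.9, 17.8 and 16.4 CPM in control, 17.7, 18.8 and 16.1 with doxycycline, 9.85, 12.5 and 10.8 with both and 9.19, 9.11 and 8.51 with dTAG-13. The dTAG-13 groups did not overlap the groups without it, and control and doxycycline overlapped. Its log2 fold changes were -0.93 (SE 0.08, edgeR adjusted p 3.21e-13) and -0.67 (SE 0.08, adjusted p 1.39e-09). Akap9, a scaffold of the Golgi and centrosome, had -0.37 and -0.18, and Golgb1, the golgin giantin, -0.35 and -0.35. After the length and GC correction Golgb1 turned to 0.052 and 0.12. Akap9 was then not called with dTAG-13 alone (-0.053) and turned to 0.20 in doxycycline-treated cells, where Akap13 was no longer called (-0.17).

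Of the phosphatidylinositol 3-kinase-related kinases and their inactive relative Trrap, 3 of 4 fell with dTAG-13 alone and all 4 fell in doxycycline-treated cells. Trrap, a scaffold of histone acetyltransferase complexes, is on chromosome 5 at 144767737 to 144859778. Its libraries stood at 144, 147 and 151 CPM in control, 155, 147 and 149.5 with doxycycline, 88.3, 97.5 and 87.4 with both and 85.9, 80.8 and 84.4 with dTAG-13. Control and doxycycline overlapped, and both lay above the dTAG-13 groups. The log2 fold changes were -0.81 (SE 0.034, edgeR adjusted p 5.70e-22) and -0.73 (SE 0.035, adjusted p 2.64e-20).

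Atm, the kinase that signals DNA breaks, had -0.36 and -0.42. Smg1, which phosphorylates Upf1 in nonsense-mediated decay, had -0.33 and -0.53, the first of which turned to 0.0125 after the length and GC correction. Prkdc, the catalytic subunit of the DNA-dependent protein kinase in end joining, is named here because its value stood apart. It was at 8.85, 9.31 and 10.04 CPM in control and 10.1, 9.43 and 9.71 CPM with dTAG-13, overlapping ranges with a log2 difference of 0.05 (SE 0.084, edgeR adjusted p 0.598). With doxycycline it was at 12.5, 12.3 and 13.05 CPM and with both compounds at 10.3, 11.3 and 9.51 CPM, a fall of 18% (-0.29, SE 0.082, adjusted p 0.00243). The length and GC correction turned that fall to 0.056 and gave 0.33 with dTAG-13 alone. Prkdc had the lowest level per kb of the 44 genes in control.

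The 6 chromatin and transcription proteins fell in both comparisons, with medians of -0.67 and -0.57. Kmt2d, a histone H3 lysine methyltransferase of enhancers, is on chromosome 15 at 98831669 to 98874077. Its libraries were at 111, 107 and 114 CPM in control, 116, 113 and 113 with doxycycline, 78.1, 82.8 and 73.8 with both and 62.4, 63.4 and 65.95 with dTAG-13. The dTAG-13 libraries were lowest and did not overlap those with both compounds. It had -0.79 (SE 0.036, edgeR adjusted p 5.77e-22) and -0.54 (SE 0.036, adjusted p 8.75e-17), and the latter turned to 0.062 after the length and GC correction.

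Kmt2c, its close relative, on chromosome 5 at 25271795 to 25498855, was at 29.7, 31.1 and 30.3 CPM in control, 40.1, 38.01 and 38.1 with doxycycline, 21.1, 27.1 and 24.2 with both and 22.2, 24.1 and 20.6 with dTAG-13. Doxycycline alone gave its highest values, and the 2 dTAG-13 groups overlapped. It had -0.45 (SE 0.063, edgeR adjusted p 1.66e-07) and -0.68 (SE 0.062, adjusted p 8.95e-12). Kmt2a, the methyltransferase MLL1, had -0.70 and -0.57. The repressor Spen had -0.77 and -0.57, the remodeller Ep400 -0.64 and -0.63, and the cohesin loader Nipbl -0.41 and -0.46. After the length and GC correction Kmt2c was not called with dTAG-13 alone (-0.030), and in doxycycline-treated cells Kmt2a was not called (-0.068) and Spen turned to 0.028.

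Among proteins of RNA processing, ribosome assembly and the nuclear pore, Prpf8 had the largest fall. Prpf8, the core protein of the spliceosome's U5 particle, is on chromosome 11 at 75486777 to 75509447 and overlaps no annotated gene. Its libraries were at 570.1, 574 and 583 CPM in control, 544, 528 and 526 with doxycycline, 293, 308 and 289.9 with both and 299, 289 and 295 with dTAG-13. The 2 dTAG-13 groups overlapped, and both lay below the others. It fell by 48.9% (-0.97, SE 0.023, edgeR adjusted p 3.73e-31) and by 44.2% (-0.84, SE 0.023, adjusted p 7.64e-29). Mdn1, the AAA ATPase that remodels pre-60S ribosomes, had -0.67 and -0.51. Ranbp2, a large protein of the nuclear pore, had -0.22 and -0.20, among the smallest falls of the 44. In doxycycline-treated cells the length and GC correction ended the call of Mdn1 (-0.043) and turned Ranbp2 to 0.046.

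Both tumour suppressors of signalling pathways fell. Nf1, neurofibromin, which switches off Ras, is on chromosome 11 at 79339590 to 79581609, where it overlaps Evi2, Evi2a, Evi2b and Omg. Its libraries were at 78.3, 81.2 and 85.7 CPM in control, 91.03, 92.4 and 89.2 with doxycycline, 51.1, 54.4 and 48.8 with both and 49, 50.3 and 52.1 with dTAG-13. Doxycycline was highest, and the 2 dTAG-13 groups overlapped below the others. It had -0.69 (SE 0.04, edgeR adjusted p 1.51e-18) and -0.82 (SE 0.041, adjusted p 8.84e-21). Apc, which holds beta-catenin in check, was at 109.9, 110.1 and 109.8 CPM in control, 112, 109 and 105 with doxycycline, 67.6, 66.3 and 60.4 with both and 65.2, 67.2 and 65.4 with dTAG-13. Its control and doxycycline libraries overlapped, as did the 2 dTAG-13 groups. It had -0.74 (SE 0.035, edgeR adjusted p 3.70e-21) and -0.75 (SE 0.036, adjusted p 5.36e-21).

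**Figure D2:**
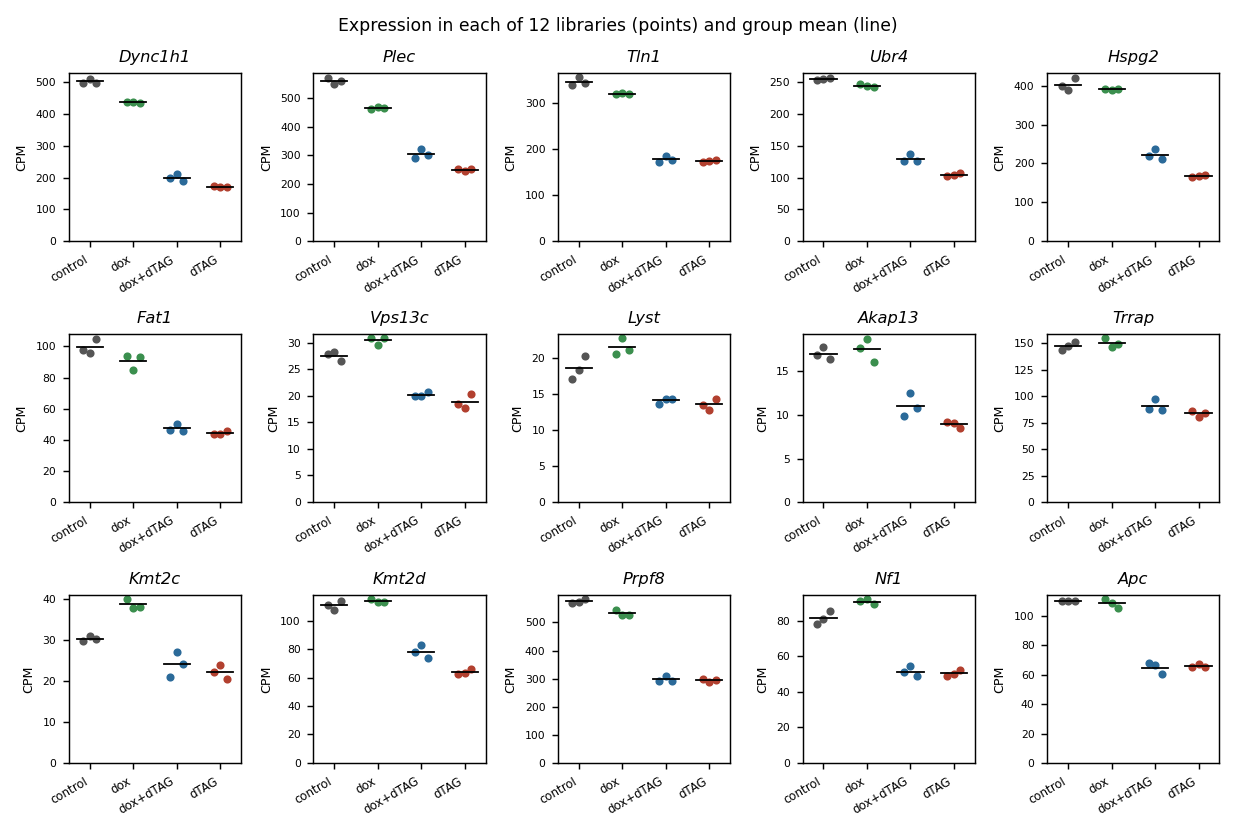
CPM (linear axis from 0) of 15 members in each of the 12 libraries (points) with the mean of the 3 libraries of a group (line), for control, doxycycline (dox), doxycycline plus dTAG-13 (dox+dTAG) and dTAG-13 (dTAG). In every panel the 6 libraries with dTAG-13 lie below the 6 without it, and in Dync1h1 the group means go from 503 CPM in control to 171 CPM with dTAG-13.

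Per kb of transcript, Myh9 had the highest control level of the 44, 164 ± 1.5 CPM per kb, followed by Flna (109.8 ± 1.2), Prpf8 (77.4 ± 0.9), Ahnak (41.9 ± 0.2) and Tln1 (41.3 ± 1.1; mean ± SD, n = 3). Ahnak and Tln1 lay within their spread of each other. The lowest control levels were those of Prkdc (0.743 ± 0.048 CPM per kb), Syne2 (0.835 ± 0.016), Vps13d (0.935 ± 0.033), Akap13 (1.35 ± 0.055) and Lyst (1.41 ± 0.12). With dTAG-13, Myh9 was at 79.9 ± 1.6 and Flna at 75.9 ± 1.4 CPM per kb, closer to each other than in control. The 44 members together took 0.913 ± 0.0028% of all counts in control, 0.909 ± 0.011% with doxycycline, 0.606 ± 0.016% with both compounds and 0.562 ± 0.0015% with dTAG-13 (mean ± SD, n = 3). Without Dync1h1 and Myh9 the shares were 0.746, 0.756, 0.521 and 0.483%, so the fall was not carried by those 2 genes alone.

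Falls with dTAG-13 were graded by length over all genes. When 11745 tested genes with a known transcript length were split into eighths, the median log2 fold change with dTAG-13 alone went from 0.23 in the shortest (median length 1.05 kb) to -0.28 in the longest (7.74 kb), which holds all 44 members. In doxycycline-treated cells it went from 0.37 to -0.38, and 75% of the longest eighth were called lower. Of the 794 other genes with transcripts at least as long as Myh9, 66.9% were called lower with dTAG-13 alone and 75.2% in doxycycline-treated cells, with medians of -0.31 and -0.39. The members' medians of -0.70 and -0.62 lay below these, and that difference was not tested, since the members were listed by name. Across those other long genes, a larger coding share of the transcript went with a lower log2 fold change (Spearman rho = -0.36 and -0.37). Other properties did so too: coding length (-0.37 and -0.39), GC content (-0.44 and -0.42) and mean level (-0.32 and -0.20). Within the 44 members the values for coding share were -0.12 and -0.15.

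Other values moved with the same groups. Genes with transcripts under 1 kb took 4.66 ± 0.035% of counts in control and 4.79 ± 0.073% with doxycycline, but 5.59 ± 0.14% with dTAG-13 and 6.34 ± 0.11% with both compounds. A single identifier took 0.533 to 0.966% in the 6 libraries without dTAG-13 and 0.936 to 1.83% in the 6 with it. The annotation used here gave it no gene name, and no length was used for it. The part of these values, or of RNA quality and handling, in the members' falls was not tested. With 1 culture per group, a difference in RNA handling between samples cannot be told apart from an effect of the compound. After the length and GC correction, which left 36 and 31 members lower, Dync1h1 kept corrected log2 fold changes of -1.04 and -0.59, and Ubr4 of -0.75 and -0.36.

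**Figure D3:**
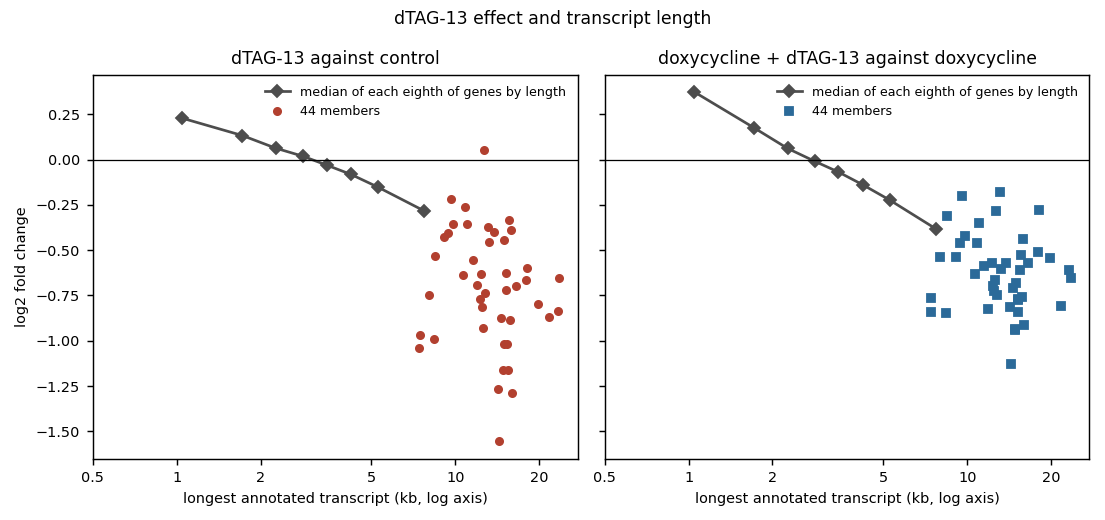
Log2 fold change against the length of the longest annotated transcript (kb, log axis) for dTAG-13 against control (left) and doxycycline plus dTAG-13 against doxycycline (right), with diamonds for the median of each eighth of 11745 genes and coloured points for the 44 members. The medians descend from 0.23 to -0.28 and from 0.37 to -0.38, and most members lie below the last median.

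Among the 44 members themselves, length had little relation to the size of the fall, with Spearman rho = -0.20 with dTAG-13 alone and -0.13 in doxycycline-treated cells (n = 44 genes). These values turned positive, 0.24 and 0.23, when the shortest annotated transcript of each gene was used. GC content of the transcript had a closer relation, with rho = -0.74 with dTAG-13 alone and -0.44 in doxycycline-treated cells. In the 794 other long genes the corresponding values were -0.44 and -0.42. These correlations are descriptions across genes of the same libraries. The 15 members of lowest GC content (40.1 to 47.0%) had a median log2 fold change of -0.41 with dTAG-13 alone, the 14 in the middle -0.68 and the 15 of highest GC content (51.4 to 61.3%) -0.99. In doxycycline-treated cells the medians were -0.57, -0.64 and -0.76. Plec and Hspg2 had the highest GC content of the 44, and Vps13a and Ranbp2 the lowest.

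**Figure D4:**
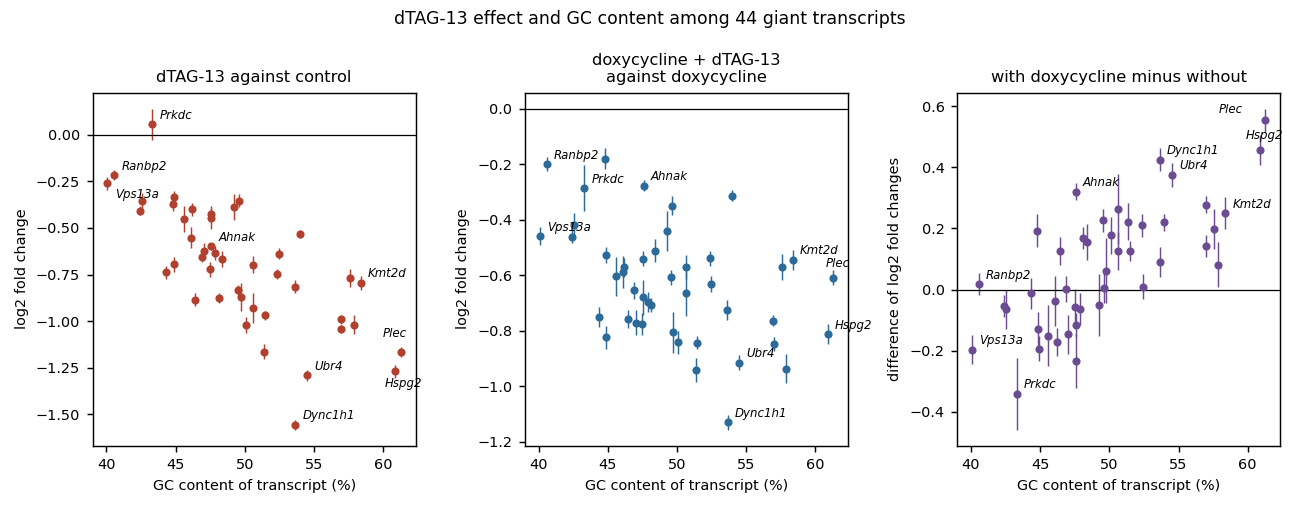
GC content of the longest transcript (%) against log2 fold change of the 44 members with dTAG-13 alone (left), with dTAG-13 in doxycycline-treated cells (middle) and against the difference between these fold changes (right), with bars of 1 standard error. Members of higher GC content lie lower on the left (Spearman rho = -0.74) and higher on the right (0.73). The right panel is the middle value minus the left, so it is no separate observation. In the 794 other long genes its rho was 0.19.

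Doxycycline alone moved the members in both directions and by less. With doxycycline against control 18 members were higher and 8 lower, against 14.8% and 18.7% of all tested genes, and the median log2 fold change was 0.06. Of the 794 other long genes 172 were higher and 103 lower, with a median of 0.03. The 18 included Prkdc (0.42, edgeR adjusted p 5.99e-05), Kmt2c (0.35, adjusted p 1.34e-05), Vps13a (0.32) and all other VPS13 genes, Lyst, Lrp1 (0.22), Smg1 (0.19) and Nf1 (0.15). The 8 were Plec (-0.27, adjusted p 4.50e-10), Dync1h1 (-0.20), Flna (-0.16), Myh9 (-0.15), Sptan1 (-0.14), Fat1 (-0.13), Prpf8 (-0.11) and Tln1 (-0.11). All 8 were among the 15 members of highest GC content, of which 1 was higher, while 10 of the 15 members of lowest GC content were higher and none lower. GC content was not the only property that went with this log2 fold change. Across the 44 members Spearman rho was -0.59 with GC content, -0.63 with mean level and 0.62 with the span of the gene. In the 794 other long genes the values were -0.13, -0.24 and 0.135. Scaling by library size alone gave 22 higher and 7 lower, and moved the share of called genes that were lower from 55.7% to 38.7% over all genes. After the length and GC correction 9 members were higher and 13 lower, and the share over all genes was 65.5%. Without control replicate 1 the count of higher members was 11.

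Among cells that had dTAG-13 for the last 3 h, called differences with doxycycline were all higher. Comparing both compounds with dTAG-13 alone, 21 members were higher and none lower, against 10.7% and 9.64% of all tested genes, with a median of 0.12. Of the 794 other long genes 70 were higher and 108 lower, with a median of -0.02. Across the 44 members Spearman rho was 0.56 with length and 0.52 with GC content, and -0.10 with the length of the shortest transcript. In the other long genes rho was 0.08 with length and 0.11 with GC content. The largest rises were those of Hspg2 (0.41, SE 0.036, edgeR adjusted p 4.48e-08), Ahnak (0.35), Ubr4 (0.32), Akap13 (0.31) and Lrp1 (0.30). None was lower at an unadjusted p under 0.05, and DESeq2 also called none lower. Scaling by library size alone left 16 higher, while over all genes the share of called genes that were lower went from 47.3% to 69.7%.

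The interaction asked whether the dTAG-13 effect differed with and without doxycycline. For 19 members the fall was smaller with doxycycline and for 5 it was larger, against 13.2% and 9.64% of all tested genes. The other 794 long genes had 8.44% with a positive and 17.5% with a negative difference. The largest positive differences were in Plec (0.55, SE 0.038, edgeR adjusted p 1.61e-13), Hspg2 (0.46, SE 0.049, adjusted p 1.39e-06), Dync1h1 (0.42, SE 0.037, adjusted p 2.78e-11) and Ubr4 (0.38, SE 0.039, adjusted p 1.33e-09). The 5 with a larger fall were Prkdc (-0.34, adjusted p 0.0312), Vps13a (-0.20), Smg1 (-0.19), Vps13b (-0.17) and Sptbn1 (-0.12). Of the 15 members of highest GC content 12 had a positive and none a negative call. In the 15 of lowest GC content the counts were 2 and 4. Across the 44 members Spearman rho of the difference was 0.73 with GC content, 0.47 with mean level and -0.48 with the span of the gene. In the 794 other long genes the values were 0.19, 0.26 and -0.11. The split depended on scaling: by library size alone 11 members were positive and 9 negative, and over all genes the negative share of calls went from 42.2% to 74.8%. With the length and GC correction 22 were positive and 1 negative, and that share was 30.6%. Without control replicate 1, or without doxycycline plus dTAG-13 replicate 3, the count of negative members was 3, and by DESeq2 it was also 3.

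Partners from the same complexes, nearly all with shorter transcripts, were set beside the giants. Of 69 partner genes tested, of 70 listed, 13 were higher and 37 lower with dTAG-13 alone, with a median of -0.10, and 17 were higher and 33 lower in doxycycline-treated cells, with a median of -0.08. Myl9 was the gene that did not pass the filter. The shares of all tested genes called higher and lower were 30% and 32.1% with dTAG-13 alone and 30.7% and 33.4% in doxycycline-treated cells. The difference between partners and members was not tested.

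Of the 19 dynein and dynactin partners of Dync1h1, 7 rose and 8 fell with dTAG-13 alone. Dynlt1b, a light chain, rose from 4.65 ± 0.102 to 7.002 ± 0.516 CPM (0.59, SE 0.11, edgeR adjusted p 1.03e-05), and in doxycycline-treated cells by 0.59 in log2, a call lost after the length and GC correction (0.15). The most negative of the 19 was -0.49, against -1.55 for the heavy chain itself. Of 9 actomyosin and adhesion partners 2 rose and 4 fell, the lowest being the talin partner Vcl, vinculin (-0.70 and -0.59). Of 8 COMPASS partners of the Kmt2 proteins 1 rose and 4 fell. The coactivator Ncoa6, at 7.10 kb the longest of them, had -0.82 and -0.83.

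Among the 7 partners of Prpf8 in the U5 particle, 5 fell and none rose with dTAG-13 alone. The helicase Snrnp200 went from 359 ± 3.32 to 156 ± 2.99 CPM (-1.20, SE 0.026, edgeR adjusted p 5.91e-33), further than Prpf8 (-0.97), although its transcript is 6.75 kb long. Of 8 Tip60 and SAGA partners 1 rose and 4 fell, with the acetyltransferase Kat2a at -0.58 and -0.54. Of 9 partners of Prkdc, Smg1 and Atm, 6 fell and none rose, led by the nonsense-mediated decay factors Upf1 (-0.67) and, in doxycycline-treated cells, Upf2 (-0.65). In the last list, partners of Ranbp2, Nipbl, Lrp1, Apc and Nf1, 2 of 9 rose and 6 fell. Gsk3b, a kinase of the beta-catenin destruction complex whose 8.3 kb transcript is longer than that of Myh9, had -0.46 with dTAG-13 alone.

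**Figure D5:**
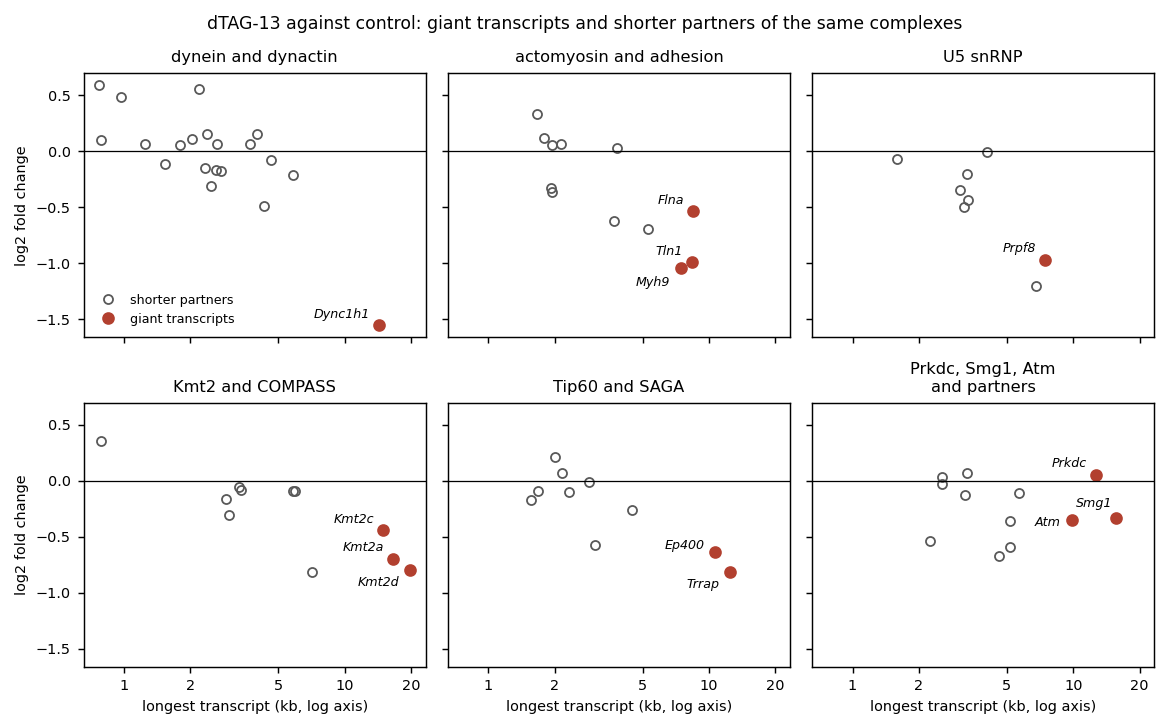
Log2 fold change with dTAG-13 against control for members (filled, named) and for partners from the same complexes (open circles), against the longest transcript (kb, log axis), in 6 panels by complex. Dync1h1 lies at -1.55 below partners between -0.49 and 0.59, whereas in the U5 panel Snrnp200 lies at -1.20, below Prpf8.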

How the data were processed

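RNA from 12 libraries was sequenced after poly(A) selection with the NEBNext Ultra II chemistry, per the labels' protocols. The authors deposited 1 table of raw counts per Entrez gene with no normalization, aligned with Subread per the file headers. The submitters' processing notes name bcl2fastq 2.17, featureCounts and mm10. Not given in the sources used here are the aligner version, annotation, strand setting and treatment of multi-mapping reads.

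Symbols and positions came from RefSeq GRCm38.p6 and transcript lengths, GC content and coding shares from GENCODE M21, whose build is that of mm10. Counts were tested in R 4.3.3 with edgeR 4.0.16: filterByExpr by group (12910 genes kept), TMM scaling (factors 0.9647 to 1.0349), 1 mean per group over 12 libraries and the robust quasi-likelihood F test, two-sided. Adjusted p-values are Benjamini-Hochberg over all tested genes, and a gene was called under 0.05. Standard errors were derived from the F statistic. CPM are normalised read counts on TMM-scaled library sizes, except those of the cell type markers, which use total counts without TMM factors. The 6 comparisons comprise 5 pairs of groups and the interaction. The code was tested on simulated counts.

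The members and partner lists were chosen with earlier results of these data known. Library values are given for Dync1h1 and, in each of 10 role groups, for the called member with the largest absolute log2 fold change in each dTAG-13 comparison; partners were named likewise, except 1 that is not reported here and stays in the counts of its list. Other members are given by log2 fold change, and Prkdc, Myh9 and the examples of other comparisons were singled out after their values were seen. Alternatives were RLE size factors, library size alone, DESeq2 1.42.0, no low-count filter, 1 CPM in 3 libraries, only the groups compared, a replicate block, a length and GC correction (splines with 5 degrees of freedom, fitted in each library to log2 CPM deviations) and leaving out each library. Figures were drawn with matplotlib 3.10.9 and tables made with pandas 2.3.3 in Python 3.11.15.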

Additional observations from a re-analysis of the deposited data

Results flagged for a closer look

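The fall after dTAG-13 differed between cells with and without doxycycline in 24 of the 44 members, by edgeR's test of the interaction at an adjusted p under 0.05 (19 higher and 5 lower, against 13.2% and 9.64% of all tested genes). Values are the log2 fold change with doxycycline minus that without, so a positive value is a smaller fall with doxycycline. Both motor chains differed, Dync1h1 by 0.42 and Myh9 by 0.28. Among the cytoskeletal proteins, Plec differed by 0.55, Ahnak by 0.32, Dst by 0.23, Flna by 0.22, Sptan1 by 0.21 and Tln1 by 0.14, and Sptbn1 by -0.12. The ubiquitin ligases Ubr4, Herc2, Huwe1 and Birc6 differed by 0.38, 0.18, 0.17 and 0.13. The surface and matrix genes Hspg2 and Fat1 differed by 0.46 and 0.22. Akap9 differed by 0.19, and the chromatin genes Kmt2d and Spen by 0.25 and 0.20. Mdn1 and Prpf8 differed by 0.16 and 0.13. The fall was larger with doxycycline in the lipid transfer genes Vps13a (-0.20) and Vps13b (-0.17) and in the kinase genes Prkdc (-0.34) and Smg1 (-0.19). Of 19 alternatives, 12 ended the call of Birc6, 12 that of Mdn1, 9 that of Prkdc, 8 that of Sptbn1, 7 that of Herc2 and 6 that of Spen. A single alternative ended each of those of Akap9, Fat1, Prpf8, Tln1, Vps13a and Vps13b. The group with both compounds also had the highest share of counts in genes under 1 kb, 6.34%, and of mitochondrially encoded protein genes, 2.96% against 2.08 to 2.14% in the other groups, whose part in these differences was not tested.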

How the results depend on the processing

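With dTAG-13 alone and in doxycycline-treated cells, every member call was the same under every alternative except the length and GC correction. Under that correction the members' medians were -0.22 with dTAG-13 alone, -0.18 in doxycycline-treated cells, -0.0008 for doxycycline alone, -0.139 for both compounds against control and 0.126 for the interaction. Counts of higher members became 1, 4, 9 and 5 in the first 4 of these. Lower members became 13 for doxycycline alone, 25 for both compounds against control and 1 for the interaction. Values changed sign with dTAG-13 alone for Vps13d (0.066), Golgb1 (0.052) and Smg1 (0.0125). In doxycycline-treated cells this held for Akap9 (0.20), Ahnak (0.17), Flna (0.17), Golgb1 (0.12), Kmt2d (0.062), Prkdc (0.056), Plec (0.048), Ranbp2 (0.046), Vps13d (0.046) and Spen (0.028). For doxycycline alone it held for Nipbl (-0.0028) and Ranbp2 (-0.072), and for the uncalled Ahnak, Birc6, Akap13, Atm, Trrap and Ep400. The cause was not tested. With library size only, medians were -0.60 (dTAG-13 alone), 0.092 (doxycycline alone), 0.083 (both against dTAG-13), -0.52 (both against control, with 1 member higher) and 0.014 (interaction, with 9 negative and 11 positive). DESeq2 gave 3 negative interactions. Without single libraries, doxycycline alone gave 11 to 19 members higher, the interaction 3 to 7 negative with a median of 0.048 to 0.129, and the medians ran from -0.65 to -0.60 in doxycycline-treated cells and from -0.58 to -0.54 for both compounds against control. The correlation with length among members was 0.24 and 0.23 with the shortest transcript and -0.14 and 0.012 with the mean length.

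Replicate numbers did not pair libraries: none of 18 same-numbered pairs correlated over 0.1, and 4 of 12 libraries correlated best with their own number. With the replicate number as a block, 43 and 44 members were lower in the 2 dTAG-13 comparisons, and doxycycline alone gave 17 higher and 8 lower, the interaction 17 positive and 6 negative. Precision was limited for members of low level: Prkdc had standard errors of 0.084 and 0.082.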
